A study of Mus musculus with 6 samples.

Results

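The guanylate-binding proteins are interferon-inducible GTPases, and the 10 mouse genes described here, Gbp2, Gbp3, Gbp4, Gbp5, Gbp6, Gbp7, Gbp8, Gbp9, Gbp10 and Gbp11, were taken by symbol from the 55450 genes of the GENCODE M21 annotation of GRCm38, of which 21951 are protein-coding. They were selected on the H3K4me3 peaks described here, with the peaks at these genes already known, so that the fold enrichments and positions below are a description and no test was made on them. H3K4me3, the trimethylation of lysine 4 of histone H3 that marks the starts of active and poised genes, was measured by ChIP-seq in 2 untreated mouse cell lines. Scid.adh.2C2 is a pro-T cell line derived from a tumor of CB17-Prkdc<scid> mice, which carry a defect in DNA repair that blocks rearrangement of the antigen receptor genes. The other line, 230-238, is a B-cell progenitor line transformed by Abelson murine leukemia virus. Each line was profiled with 2 H3K4me3 ChIP samples and 1 input sample, 6 samples in all, and each is a single transformed line grown in RPMI1640-based medium, so that lineage, transformation and strain cannot be told apart.

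Guanylate-binding proteins are made in quantity after exposure to interferons, above all interferon-gamma, which acts through transcription factors such as IRF1 on the promoters of these genes. The proteins assemble on the membranes of vacuoles that hold intracellular parasites and on bacterial surfaces, and they help to activate the inflammasomes, the complexes that switch on inflammatory caspases. In the mouse the genes lie as tandem copies in a cluster on chromosome 3 and a second on chromosome 5.

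For each line 1 peak list that combines both replicates was deposited, with 15513 peaks in Scid.adh.2C2 and 19604 in 230-238. The lists hold no value per replicate and no read depth, so no error can be given for any value below, and where no peak is listed at a promoter, none met the thresholds used by the authors. The fold enrichment is the height of a peak over the background modelled by the peak caller, and its median was 20.3 in the Scid.adh.2C2 list and 15.4 in the 230-238 list. Values were therefore ranked within a list and not compared as levels between the lines. Since each list comes from bulk chromatin, a mark in part of the cells and a weaker mark in all of them cannot be told apart. The labelled cell types were checked with 10 T-cell progenitor and 10 B-cell progenitor marker genes. In Scid.adh.2C2 all 10 T-cell markers and 1 B-cell marker, Vpreb1, had a peak at the promoter. In 230-238 all 10 B-cell markers and 4 T-cell markers, Cd3d, Tcf7, Lck and Notch1, had one.

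Promoter sequence was at hand for 4 of the 10 genes, all on chromosome 3: Gbp5, Gbp7, Gbp3 and Gbp2. These 4 are shown because no other member had such a sequence at hand, and all 4 lay under peaks in both lines. The promoter of Gbp2b, a neighbour in the same cluster that is not among the 10 genes, is shown beside them. It had no peak in either line. The RefSeq windows hold 250 bases before and 50 after a gene start, on the plus strand of GRCm38.p6. Capitals mark matches, on either strand, to the interferon-stimulated response element (GAAANNGAAA), the gamma-activated site (TTCNNNGAA), the Ets-IRF composite element (GGAANNGAAA) and the TATA box (TATAAA).
Gbp5, chr3:142496684-142496983: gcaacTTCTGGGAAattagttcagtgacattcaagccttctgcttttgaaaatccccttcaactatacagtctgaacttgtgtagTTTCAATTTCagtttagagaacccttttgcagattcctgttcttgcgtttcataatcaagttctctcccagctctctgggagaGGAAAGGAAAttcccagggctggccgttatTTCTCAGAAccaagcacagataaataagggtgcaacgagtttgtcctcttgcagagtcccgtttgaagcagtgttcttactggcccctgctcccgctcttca
Gbp7, chr3:142530086-142530385: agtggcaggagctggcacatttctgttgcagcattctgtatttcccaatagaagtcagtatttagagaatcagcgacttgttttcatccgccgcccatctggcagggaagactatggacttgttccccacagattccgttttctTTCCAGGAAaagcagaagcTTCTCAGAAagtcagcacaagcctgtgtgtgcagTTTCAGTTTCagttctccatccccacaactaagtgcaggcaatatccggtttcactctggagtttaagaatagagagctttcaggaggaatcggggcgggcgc
Gbp3, chr3:142559794-142560093: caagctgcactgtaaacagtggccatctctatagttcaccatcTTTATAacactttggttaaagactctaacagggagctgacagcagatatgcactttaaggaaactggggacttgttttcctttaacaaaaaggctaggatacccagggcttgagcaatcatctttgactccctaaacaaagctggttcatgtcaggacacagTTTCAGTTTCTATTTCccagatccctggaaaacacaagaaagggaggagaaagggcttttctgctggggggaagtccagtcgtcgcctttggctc
Gbp2, chr3:142620413-142620712: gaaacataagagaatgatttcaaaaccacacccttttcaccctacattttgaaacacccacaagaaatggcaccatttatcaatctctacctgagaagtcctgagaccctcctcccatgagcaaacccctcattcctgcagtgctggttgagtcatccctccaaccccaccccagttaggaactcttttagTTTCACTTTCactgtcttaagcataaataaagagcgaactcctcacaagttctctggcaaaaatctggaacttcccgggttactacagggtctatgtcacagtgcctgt
Gbp2b, chr3:142594597-142594896: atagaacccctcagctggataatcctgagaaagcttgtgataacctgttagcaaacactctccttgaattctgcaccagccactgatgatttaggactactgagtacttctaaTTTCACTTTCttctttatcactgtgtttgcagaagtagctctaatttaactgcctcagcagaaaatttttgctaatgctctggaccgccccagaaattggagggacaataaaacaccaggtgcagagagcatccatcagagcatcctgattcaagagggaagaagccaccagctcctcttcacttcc
Bases are counted from 1 at the left end of each window. The interferon-stimulated response element, the letters bound by IRF proteins, was found at bases 86 to 95 of the Gbp5 window, 198 to 207 of Gbp7, 206 to 215 and 212 to 221 of Gbp3, where the 2 matches overlap, 192 to 201 of Gbp2, and 114 to 123 of Gbp2b. It was present in 3.44% of all 32851 promoter windows of this length. The gamma-activated site, named for its part in the response to interferon-gamma, was found at bases 6 to 14 and 199 to 207 of Gbp5 and at bases 145 to 153 and 164 to 172 of Gbp7, and in 8.30% of all windows. An Ets-IRF element was found at bases 169 to 178 of Gbp5 and in 2.72% of all windows, and the TATAAA letters at bases 44 to 49 of Gbp3, on the minus strand, and in 13.6%. All 300 bases of the Gbp5, Gbp7, Gbp3 and Gbp2 windows were under peaks in both lines, and none of the Gbp2b window was in either. The unmarked Gbp2b window thus held the same element as the 4 marked ones, and such matches only describe the letters. A second RefSeq window of Gbp3, chr3:142560106-142560405, held no match to any of the 4 motifs, with 223 of its bases under peaks in Scid.adh.2C2 and all 300 in 230-238.

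Genes with a peak that reached within 2500 bp of any annotated transcription start site (TSS) were called marked. In Scid.adh.2C2 9 of the 10 Gbp genes were marked, where 45.5% of all protein-coding genes were, and in 230-238 7 were, where 48.2% of protein-coding genes were. Marked in both lines were 7 genes, Gbp2, Gbp3, Gbp4, Gbp5, Gbp7, Gbp8 and Gbp9, a class that held 42.2% of protein-coding genes. Gbp6 and Gbp11 were marked in Scid.adh.2C2 only, as were 3.28% of protein-coding genes. No member was marked in 230-238 only, a class with 5.96% of protein-coding genes. Gbp10 was marked in neither line, as were 48.6%. The genes are not 10 separate observations, since Gbp4, Gbp8 and Gbp9 have annotated transcripts that begin within the same stretch, chr5:105139539-105139586, and a single peak there counts for all 3. Wherever a member was marked, a peak lay directly over at least 1 of its annotated TSSs. For Gbp8 and Gbp9 in 230-238 this was so only at the start shared with Gbp4. The unmarked members were far from any peak, with the smallest distance at Gbp10, 51342 bp from the nearest peak of Scid.adh.2C2. No member was therefore close to the limit of the window.

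**Figure D1:**
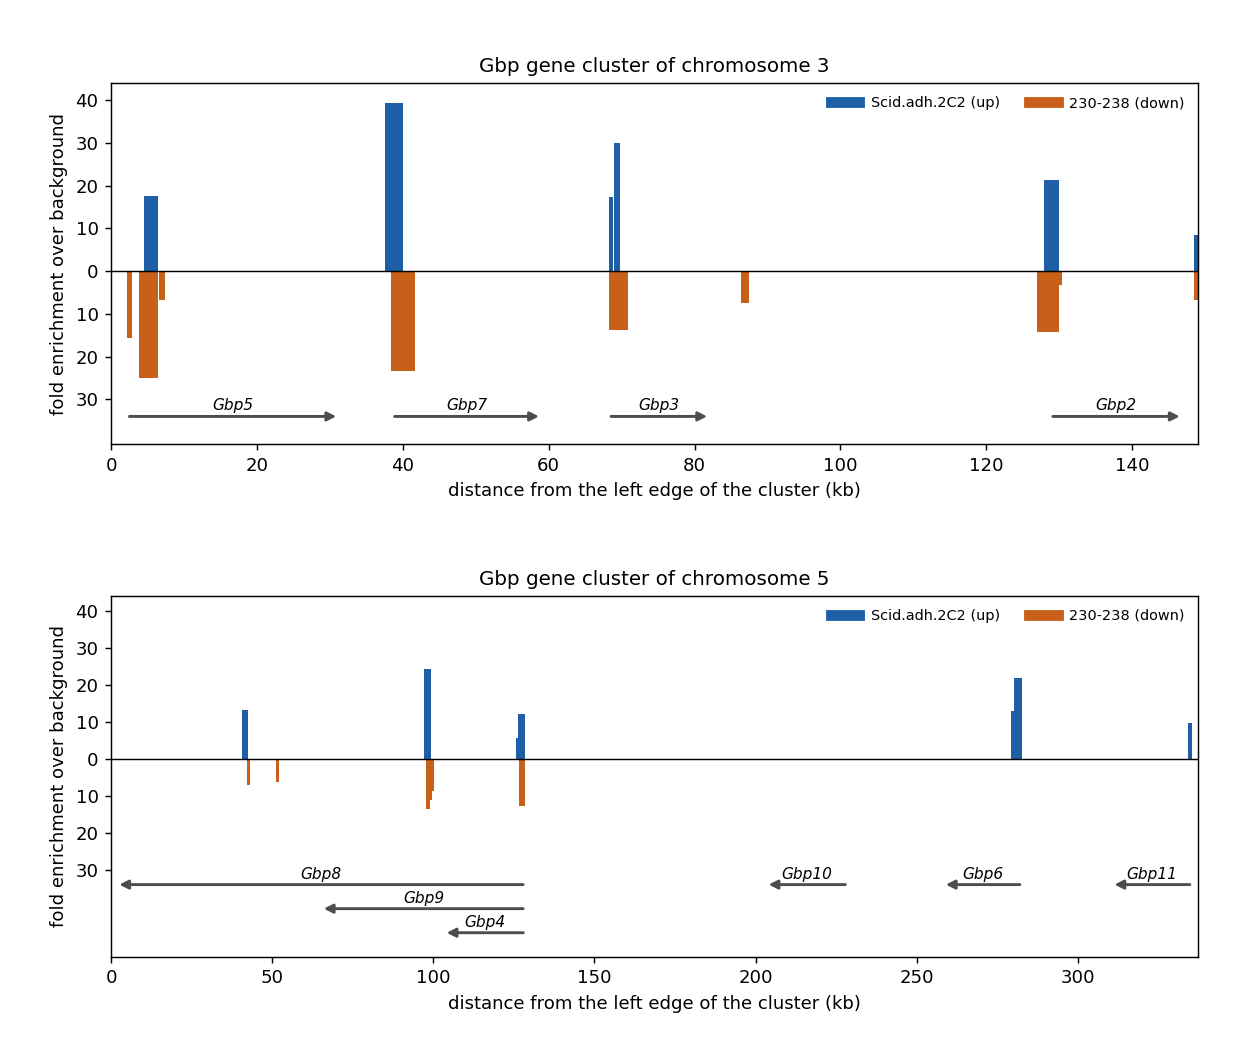
H3K4me3 peaks across the Gbp gene clusters of chromosome 3 (top) and chromosome 5 (bottom), with the distance from the left edge of the cluster in kb on the x axis and the fold enrichment on the y axis. Each bar is a peak, as wide as the peak and as high as its fold enrichment, drawn upwards for Scid.adh.2C2 and downwards for 230-238, and arrows give the genes and their direction. On chromosome 5 the peaks at Gbp6 and Gbp11 appear in Scid.adh.2C2 only and Gbp10 has none.

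The chromosome 3 cluster was marked at all 4 of its members in both lines. Gbp7, which has been linked to the assembly of the phagocyte oxidase, had the highest peak of the family in Scid.adh.2C2 and the second highest, after Gbp5, in 230-238 (chr3:142530342-142550149, plus strand, ENSMUSG00000040253.15). Its single TSS lay under a 39.3-fold peak of 2378 bp in Scid.adh.2C2, which ranked 361 among the 15513 peaks of the list and exceeded the highest peak of 95.6% of marked protein-coding genes. In 230-238 the Gbp7 peak was 23.3-fold over 3284 bp and exceeded 61.1% of marked genes. The summits, in an intron of Gbp7, were 304 bp and 238 bp inside the gene and 66 bp apart.

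Gbp5, a prenylated member known to promote assembly of the NLRP3 inflammasome, stood higher in its list in 230-238 than in Scid.adh.2C2 (chr3:142493978-142522344, plus strand, ENSMUSG00000105504.4). In 230-238 its highest peak was 24.9-fold over 2674 bp and exceeded 72.0% of marked genes, and in Scid.adh.2C2 it was 17.5-fold over 1841 bp and exceeded 12.7%. The 2 summits were 40 bp apart, within 223 bp downstream of the start site at chr3:142496900-142496942. A second start of Gbp5, annotated further upstream at chr3:142493978, differed between the lines. It lay under a 15.7-fold peak of 771 bp in 230-238, chr3:142493627-142494397, with the summit 89 bp upstream of the TSS, whereas the nearest Scid.adh.2C2 peak began 2058 bp downstream. The 300 bases around that summit are shown because a peak covered this start in 230-238 only, and they hold none of the 4 motifs.
Gbp5 upstream start, chr3:142493739-142494038, plus strand, GRCm38.p6: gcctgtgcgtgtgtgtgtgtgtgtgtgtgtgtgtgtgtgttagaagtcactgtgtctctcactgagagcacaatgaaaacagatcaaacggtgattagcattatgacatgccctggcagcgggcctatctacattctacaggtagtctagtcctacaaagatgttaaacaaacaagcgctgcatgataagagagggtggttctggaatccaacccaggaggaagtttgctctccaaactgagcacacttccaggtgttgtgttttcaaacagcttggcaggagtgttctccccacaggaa
All 300 bases were under the 230-238 peak and none were under a Scid.adh.2C2 peak. The 230-238 list also held a 6.74-fold peak of 826 bp in an intron of Gbp5, with no overlapping Scid.adh.2C2 peak.

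Gbp3 was marked by a pair of peaks in Scid.adh.2C2 and by 1 broad peak in 230-238 (chr3:142560026-142573209, plus strand, ENSMUSG00000028268.14). In Scid.adh.2C2 a 30.1-fold peak of 848 bp, whose summit lay in an annotated untranslated exon, exceeded 65.3% of marked genes, and a 17.4-fold peak of 631 bp lay just upstream of it over the first annotated starts. In 230-238 a single 13.8-fold peak of 2509 bp overlapped both and exceeded 10.7% of marked genes. The highest summits were 39 bp apart. Gbp2, a prenylated member recruited to the vacuole of Toxoplasma gondii, had a 21.4-fold peak of 2017 bp in Scid.adh.2C2, above 23.9% of marked genes (chr3:142620602-142638008, plus strand, ENSMUSG00000028270.12). In 230-238 it had a 14.3-fold peak of 2933 bp, above 12.3% of marked genes, and next to it a 3.23-fold peak of 269 bp in an intron that was above 0.189% of the list. The main summits were 136 bp and 201 bp upstream of the TSS and 65 bp apart, so that in all 4 members of chromosome 3 the highest summits of the lines were within 66 bp of each other.

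**Figure D2:**
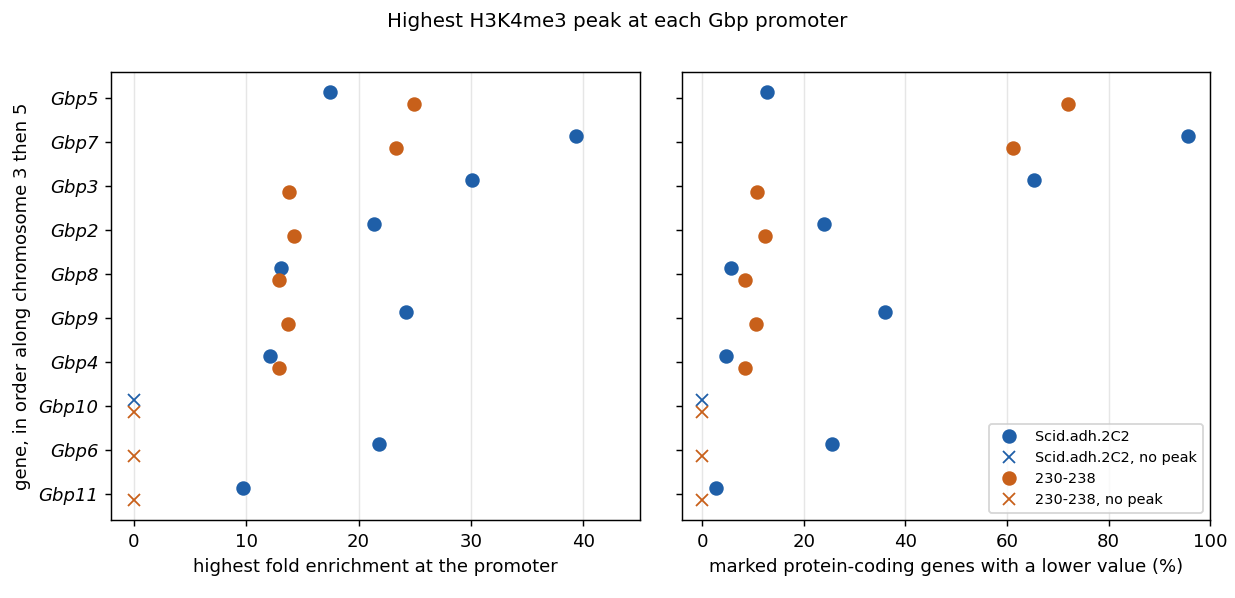
Highest H3K4me3 peak at each Gbp promoter in Scid.adh.2C2 (blue) and 230-238 (orange), with genes on the y axis in their order along the chromosomes. The left panel gives the fold enrichment and the right panel the percentage of marked protein-coding genes of the same line with a lower value, and crosses stand for genes with no peak. Gbp7 in Scid.adh.2C2 stands at 95.6% and Gbp5 in 230-238 at 72.0%, whereas Gbp4 and Gbp8 lie under 10% in both lines. In 230-238 the points of Gbp4 and Gbp8 are the same peak, at the start these genes share.

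The chromosome 5 cluster, whose 6 members are all annotated on the minus strand, was marked at 5 of them in Scid.adh.2C2 and at 3 in 230-238. At the start shared by Gbp4, Gbp8 and Gbp9 (chr5:105139539-105139586) the Scid.adh.2C2 peak was 12.1-fold over 2226 bp and the 230-238 peak 12.9-fold over 1919 bp, with summits 366 bp apart. These were the highest peaks of Gbp4 (chr5:105115767-105139586, ENSMUSG00000079363.7) and exceeded those of 4.62% and 8.51% of marked genes. A 5.47-fold peak of 263 bp lay further inside the genes in Scid.adh.2C2 only.

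Gbp9 (chr5:105077630-105139539, ENSMUSG00000029298.15) had the highest peaks of the chromosome 5 cluster, at a start of its own, chr5:105110276. In Scid.adh.2C2 a single 24.2-fold peak of 1986 bp covered this start and exceeded 36.0% of marked genes. In 230-238 the same stretch held 3 peaks, 13.7-fold over 742 bp, 11.1-fold over 465 bp and 8.62-fold over 628 bp, of which the first exceeded 10.5% of marked genes. The start itself fell in a gap between them, 63 bp from the nearest peak edge. The highest summits were 54 bp apart.

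Gbp8 (chr5:105014150-105139540, ENSMUSG00000034438.16) also has a start of its own, chr5:105053556, and the lines differed there in where the peak lay. In Scid.adh.2C2 a 13.1-fold peak of 1844 bp, above 5.64% of marked genes and 32.1% of its list, covered the start, with the summit 261 bp downstream. In 230-238 a 7.15-fold peak of 435 bp ended 154 bp short of the start, with the summit 341 bp upstream, and was above 8.99% of its list. The irreproducible discovery rate (IDR) score, which is highest at 1000 for peaks of like rank in both replicates, was 881 for the Scid.adh.2C2 peak and 685 for the 230-238 peak. A further peak within Gbp8 in 230-238, 6.38-fold over 439 bp at chr5:105062736-105063174, lay in an intron, with its summit 9353 bp upstream of that start, and outside every promoter window.

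Gbp6 and Gbp11 were the members with promoter peaks in Scid.adh.2C2 and none in 230-238. The start of Gbp6 (chr5:105270702-105293698, ENSMUSG00000104713.4) lay under a 21.8-fold peak of 2502 bp, chr5:105291817-105294318, whose summit was 875 bp inside the gene in an intron. It exceeded 25.6% of marked genes, and its −log10 q was 118. A 13.0-fold peak of 863 bp followed it downstream, and together the peaks covered 60.9% of the Gbp6 promoter window. Nothing overlapped this window in 230-238, where the nearest peak was 121008 bp away. The start of Gbp6 is shared with the annotated gene Gm43302, so that the peaks count for both. Gbp11 (chr5:105323042-105346472, ENSMUSG00000092021.8), annotated as a polymorphic pseudogene, had, by the highest peak at each promoter, the lowest value of the marked members, 9.71-fold over 908 bp at chr5:105345970-105346877, above 2.69% of marked genes and with a −log10 q of 23.1. In 230-238 the nearest peak was 68234 bp away. With peaks of at least 10-fold only, Gbp11 was no longer marked and Gbp6 alone remained marked in Scid.adh.2C2 only. Gbp10 (chr5:105215699-105239533, ENSMUSG00000105096.1), which lies between Gbp9 and Gbp6, had no peak within 51342 bp in Scid.adh.2C2 or 81974 bp in 230-238.

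**Figure D3:**
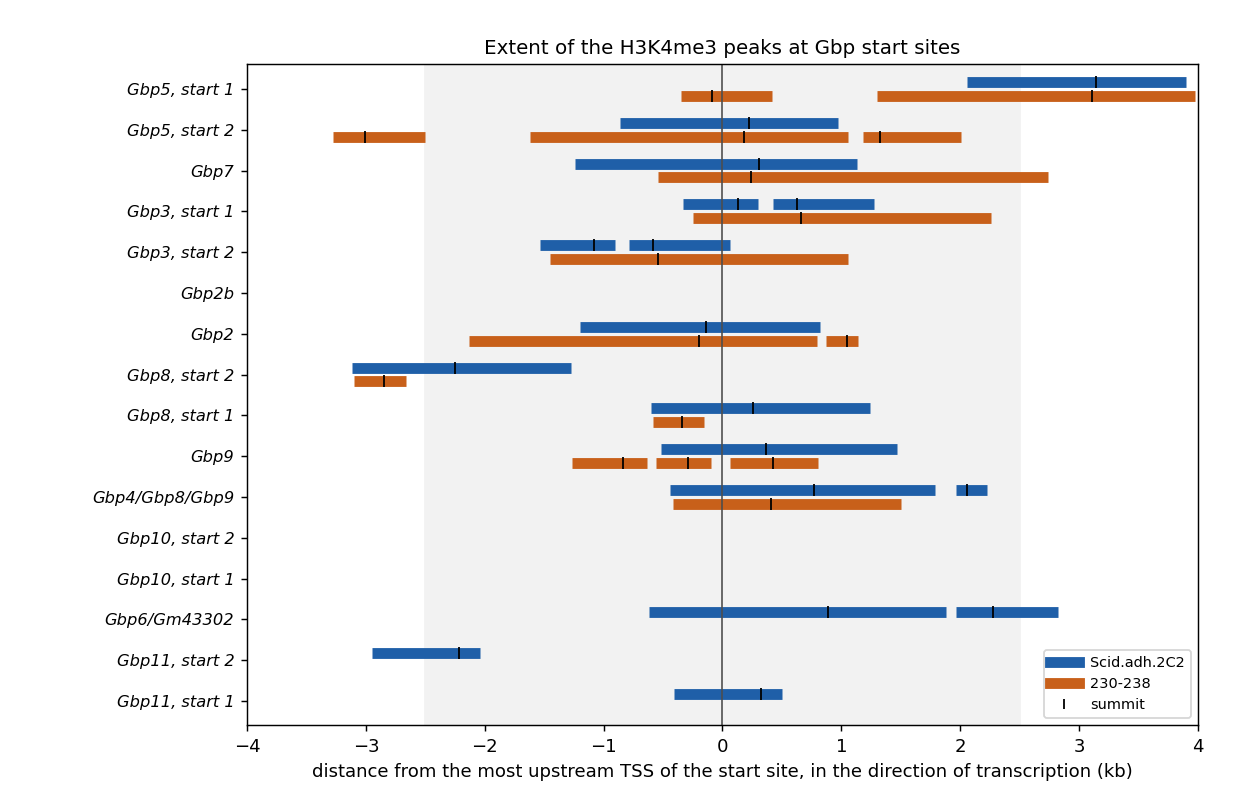
Extent of the H3K4me3 peaks around the annotated start sites of the Gbp genes and of Gbp2b, with the distance in kb from the most upstream TSS of each start site on the x axis, positive in the direction of transcription. Bars are peaks of Scid.adh.2C2 (blue) and 230-238 (orange), black ticks are summits and grey marks 2500 bp either side of the TSS, with TSSs within 500 bp taken as 1 start site and unmarked internal starts of Gbp5, Gbp8 and Gbp9 left out. Only 230-238 has a peak over the first start of Gbp5. At chr5:105053556, the first of the starts that belong to Gbp8 alone, the 230-238 peak lies upstream of the TSS. At chr5:105110276, a start of Gbp9 alone, 230-238 peaks lie on both sides. Gbp10 and Gbp2b have no peaks.

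The length of promoter under peaks differed in opposite ways in the clusters. On chromosome 3 more bases of every member window were covered in 230-238 than in Scid.adh.2C2. The covered length was 4271 bp against 1841 bp at Gbp5, 3046 against 2378 at Gbp7, 2509 against 1479 at Gbp3 and 3202 against 2017 at Gbp2. On chromosome 5 the 3 members marked in both lines had the longer cover in Scid.adh.2C2, with 4333 bp against 2354 bp at Gbp8, 4475 against 3754 at Gbp9 and 2489 against 1919 at Gbp4. All of these include the shared start, whose cover is the Gbp4 value, so they are not 3 separate differences. Around the own start of Gbp9 the cover was close in the lines, 1986 bp in Scid.adh.2C2 against 1835 bp in 230-238. Around that of Gbp8 at chr5:105053556 it was 1844 bp against 435 bp. Over the whole chromosome 3 cluster, chr3:142491478-142640508, 5.55% of the bases were under 6 peaks in Scid.adh.2C2 and 9.96% under 9 peaks in 230-238. Over the chromosome 5 cluster, chr5:105011650-105348972, 3.14% were under 7 peaks in Scid.adh.2C2 and 1.37% under 6 peaks in 230-238. The median peak width was 1542 bp in the Scid.adh.2C2 list and 1590.5 bp in the 230-238 list. With peaks of at least 10-fold, both lines had 5 peaks on chromosome 3, and on chromosome 5 Scid.adh.2C2 had 5 and 230-238 had 3. With the longer 230-238 list shortened to the length of the other, both lines had 6 peaks on chromosome 3, and 230-238 had 3 on chromosome 5. Read depth, which can change the width and number of peaks, is unknown for both lists.

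**Figure D4:**
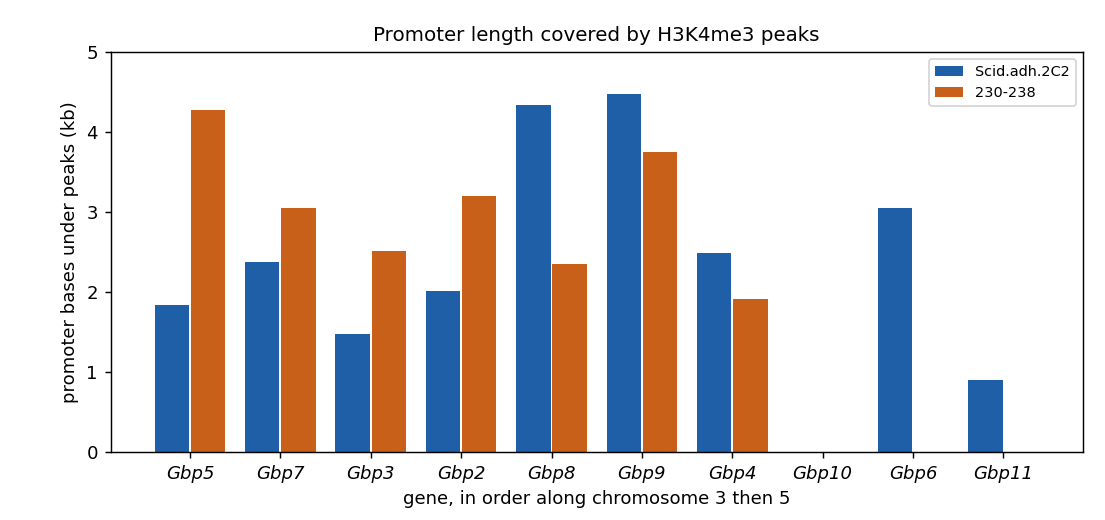
Length of each Gbp promoter window under H3K4me3 peaks, in kb, for Scid.adh.2C2 (blue) and 230-238 (orange), with the genes in chromosome order on the x axis. The 230-238 bar is the longer one at Gbp5, Gbp7, Gbp3 and Gbp2, the Scid.adh.2C2 bar at Gbp8, Gbp9, Gbp4, Gbp6 and Gbp11, and Gbp10 has no bar. The bars of Gbp8, Gbp9 and Gbp4 each include the start these genes share.

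Of the peaks in the chromosome 3 cluster, all 6 of Scid.adh.2C2 overlapped a 230-238 peak, and 5 of the 9 in 230-238 overlapped a Scid.adh.2C2 peak. In the chromosome 5 cluster 3 of 7 and 4 of 6 did. The share of overlapping peaks over each whole list was not computed, and the 230-238 list is the longer one. These counts therefore cannot be read as particular to the Gbp clusters. Few peaks lay away from the promoters of the members. Downstream of Gbp2 both lines had a peak at the cluster edge, 8.57-fold at chr3:142639956-142640609 in Scid.adh.2C2 and 6.77-fold at chr3:142640007-142640596 in 230-238. In 230-238 a 7.52-fold peak of 1079 bp, chr3:142577853-142578931, stood between Gbp3 and Gbp2b with no counterpart. The TSS of Gbp2b itself was 24559 bp from the nearest Scid.adh.2C2 peak and 15916 bp from the nearest 230-238 peak.

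Tandem copies share sequence, and a read from a shared stretch cannot be assigned to 1 copy. The share of 67-base words, the length of a read after the fixed trimming of its ends, that occur once in GRCm38 was therefore computed for each promoter window. These shares describe the reference genome, and the copies held in the genomes of both lines are unknown. The share was 97.2% to 100% in the 4 members of chromosome 3, and the median over 21938 protein-coding genes was 99.0%. On chromosome 5 it was 93.7% at Gbp4, 90.6% at Gbp11, 87.5% at Gbp6, 87.1% at Gbp9, 69.7% at Gbp8 and 58.5% at Gbp10. Only 5.19% of protein-coding genes had a lower share than Gbp10, and 41.4% of the words of its window had another copy within the clusters. At the Gbp10 start chr5:105239533 the share was 68.2%, and at its other start, chr5:105221976, it was 48.8%. Of the words in the larger Gbp6 peak 84.8% occurred once, in the smaller Gbp6 peak 67.1%, and in the Gbp11 peak 88.5%. Reads placed at these peaks may stem in part from other copies, and the part of shared sequence in the missing peaks of Gbp10 was not tested.

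**Figure D5:**
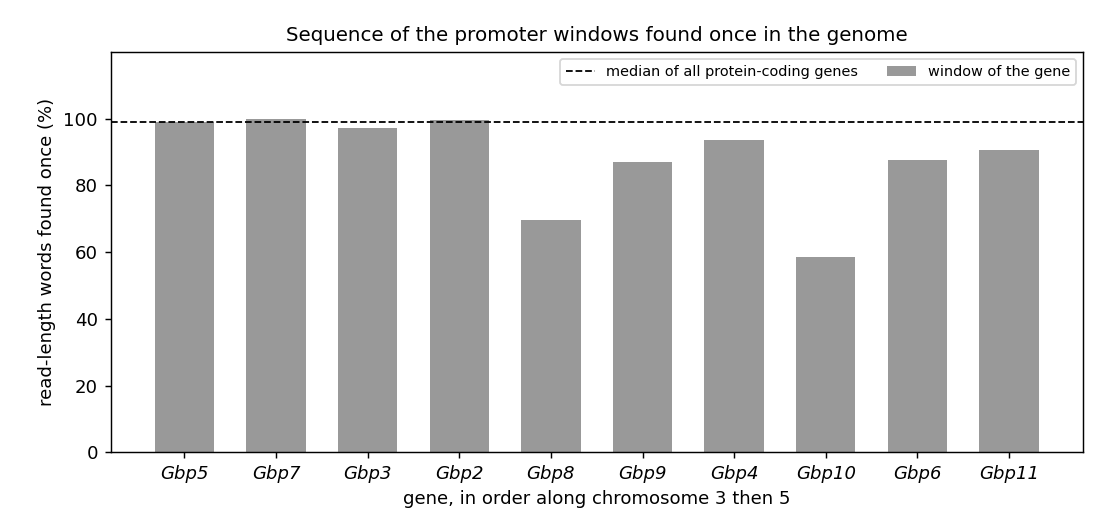
Percentage of the 67-base words of each Gbp promoter window that occur once in the mouse genome, with the genes in chromosome order on the x axis and the median of all protein-coding genes, 99.0%, as a dashed line. The members of chromosome 3 lie between 97.2% and 100%, and Gbp8 at 69.7% and Gbp10 at 58.5% are the lowest.

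Other genes of the interferon response, from receptors to genes induced beside the Gbp genes and partners of their products, were listed by role. Of these 49 genes 35 were marked in both lines, where 42.2% of all protein-coding genes were, and 7 in 230-238 only, where 5.96% were. Marked in Scid.adh.2C2 only were 4, against 3.28% of protein-coding genes, and 3 were marked in neither, against 48.6%. All 10 receptor and signalling genes were marked in both lines, among them Ifngr1, a chain of the interferon-gamma receptor, at 17.2-fold in Scid.adh.2C2 and 21.9-fold in 230-238. Of 7 transcription factors 6 were marked in both, including Irf1 at 29.0-fold and 20.0-fold, and Irf8, a factor of B cells and myeloid cells, was marked in 230-238 only at 28.9-fold. Of 4 feedback inhibitors 3 were marked in both, and Socs1, which blocks JAK kinases, in 230-238 only at 22.3-fold. Of 9 other interferon-inducible GTPases 6 were marked in both, Gm12250 in 230-238 only (14.4-fold), the antiviral Mx1 in Scid.adh.2C2 only (13.3-fold) and Gvin1 in neither. Of the 8 partners and effectors 3 were marked in both. The DNA sensor Aim2 (27.8-fold), the inflammatory caspases Casp1 (19.2-fold) and Casp4 (19.8-fold) and the sensor Nlrp3 (7.91-fold) were marked in 230-238 only, and the inflammasome adaptor Pycard (24.4-fold) in Scid.adh.2C2 only. Of 11 other interferon-inducible genes 7 were marked in both, the antiviral genes Oas1a (9.86-fold) and Rsad2 (9.02-fold) in Scid.adh.2C2 only, and Ifit3 and Cxcl9 in neither. Gbp6 and Gbp11 fell in the same class as Mx1, Pycard, Oas1a and Rsad2, which is a shared label and no measure of likeness. Like Gbp11, Oas1a and Rsad2 had no promoter peak of at least 10-fold, and in 230-238 neither had Nlrp3. Of the genes marked in both lines, Tgtp1 in 230-238 (8.49-fold) and Cxcl10 in Scid.adh.2C2 (6.84-fold) also fell short of 10-fold.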

How the data were processed

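The authors trimmed the single-end reads with Trim Galore 0.6.7, mapped them to mm10 (GRCm38) with Bowtie2 2.4.4 and called narrow peaks with MACS2 2.2.7.1 over the input (q-value limit 0.05). From the 2 replicates they kept the optimal peak set by IDR, with 0.05 as the limit. The deposited list of each line gives for every peak an IDR score, the fold enrichment as a ratio, and the −log10 p-value and −log10 q-value, all used as deposited. The lists belong to no single sample and were matched to the lines by name: 1 carries the name 230-238 without its hyphen, and the other was matched to Scid.adh.2C2 by the ending 2C2 alone, with no fuller name of the line. The input samples entered only through this peak calling. How reads with several matches were treated is not given in the sources used here.

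Peaks were intersected with the regions within 2500 bp of every TSS in GENCODE M21 (Python 3.11.15, pandas 2.3.3, numpy 2.4.6, matplotlib 3.10.9), and the functions were tested on simulated peaks. Clusters ran from the first to the last base of the members, extended by 2500 bp. Words of 67 bases, from 75 cycles less 5 and 3 trimmed bases, were counted on both strands of GRCm38. For the median over all protein-coding genes, words were sampled every 50 bp. All 10 members were described, and pathway genes marked in 1 line only were named. The members, lists and rules were chosen with earlier results of these data known. No test was made, since each line has 1 combined list. Alternatives were windows of 1000 bp and 5000 bp, peaks of at least 10-fold or with an IDR score of 1000, lists of equal length, the summit inside the window, other TSS sets, and other cluster edges and merging of peaks.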

Additional observations from a re-analysis of the deposited data

How the results depend on the processing

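The counts of marked members were 9 in Scid.adh.2C2 and 7 in 230-238 with windows of 1000 bp and 5000 bp, with peaks of IDR score 1000, with lists of equal length, with the summit inside the window, and with only the most upstream or only protein-coding TSSs. With peaks of IDR score 1000, Gbp8 stayed marked in both lines only through the start shared with Gbp4 and Gbp9. In 230-238 the same held for Gbp8 with peaks of at least 10-fold. The most upstream TSSs of Gbp8 and Gbp9 also lie at that start, where the same peaks count for all 3 genes. The unchanged counts therefore rest in part on that 1 start. With peaks of at least 10-fold, the members marked in Scid.adh.2C2 only fell from 2 to 1, with Gbp11 lost, and the 230-238 peaks fell from 9 to 5 in the chromosome 3 cluster and from 6 to 3 in the chromosome 5 cluster. With lists of equal length the latter also numbered 3. On chromosome 3 the 230-238 peaks numbered 6 with lists of equal length, as did those of Scid.adh.2C2, and with peaks within 1000 bp merged they numbered 6 against 5. On chromosome 5 merging left 5 peaks in Scid.adh.2C2 and 4 in 230-238. The highest fold enrichments of single members were unchanged in all 48 comparisons, made with windows of 1000 bp and 5000 bp and with the summit inside the window. No paired analysis was possible because each line has 1 combined list, and leaving out a replicate could not be run for the same reason. Read depth is unknown, so a missing peak is not shown to be a missing mark.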
